A study of Mus musculus with 8 samples.

Results

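The 10 genes described here are Igf2, H19, Dlk1, Meg3, Peg3, Mest, Cdkn1c, Plagl1, Grb10 and Ndn, out of 23432 genes counted in each of 8 RNA-seq libraries of mouse skin epithelium. Igf2 was singled out by its lower count in Kansl1 cKO libraries at P0.5, so the set was selected on that contrast, and the values of that contrast are given as a description with no test. The other members are imprinted genes. How they were picked is not recorded in full, and earlier results of these data were known. All 10 had a row in every library and all 10 passed the filter on low counts in both experiments.

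At E16.5, K14-H2BGFP+ epithelial cells of dorsal skin, which carry a green fluorescent histone driven by the Krt14 promoter, were sorted from 2 Control and 2 MOFfl/fl/K14Cre embryos (MOF cKO). At P0.5, total epidermal cells of 2 Control and 2 Kansl1fl/fl/K14Cre newborns (Kansl1 cKO) were lysed from sheets that Dispase had freed from the dermis. MOF, listed as Kat8, is the acetyltransferase of lysine 16 of histone H4, and Kansl1 is a scaffold of the NSL complex, one of the complexes in which MOF acts. The Krt14 promoter drives Cre in the basal epidermis and its derivatives, so dermal and immune cells keep their alleles, and the controls were littermates on a mixed C57Bl/6J and CD-1 background. Stage, isolation and genotype all changed between the experiments, so a difference between E16.5 and P0.5 cannot be told apart from the way the cells were obtained. Nothing in the labels says more about the source of each replicate, and the p-values measure the spread between these libraries.

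Genomic imprinting silences one parental copy of a gene, through DNA methylation set in the egg or the sperm, so that the RNA comes from the other copy. Many imprinted genes act on fetal growth and are turned down after birth. Igf2 encodes insulin-like growth factor II, a paternally expressed growth factor, and H19 is a maternally expressed noncoding RNA of the same domain, where both genes share enhancers. Dlk1, a paternally expressed transmembrane relative of the Notch ligands, and Meg3, a maternally expressed noncoding RNA, form a second such pair. Counts per gene do not separate the parental alleles, so none of the values below says which copy was expressed.

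In the mm10 build, Igf2 lies on the minus strand of chromosome 7 from 142650766 to 142666816, and H19 lies on the same strand from 142575529 to 142578143. Cdkn1c lies on the minus strand of chromosome 7 from 143458339 to 143461050, and Peg3 and Ndn are on the same chromosome farther away. Dlk1 and Meg3 lie on the plus strand of chromosome 12, from 109452823 to 109463336 and from 109541001 to 109571726. Mest lies on the plus strand of chromosome 6 from 30723547 to 30748465, and its exons share 912 bp with exons of Copg2 on the opposite strand, which is 23.1% of its exon length. Plagl1 lies on the plus strand of chromosome 10 from 13060504 to 13131694, and Grb10 on the minus strand of chromosome 11 from 11930508 to 12038683. The paper names a directional kit for the libraries, but whether the counting used strand is not given in the sources used here. Reads from Mest and Copg2 may therefore not be separated in the shared stretch.

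The promoter stretches of Igf2, Dlk1, Meg3, Mest and Plagl1 are shown because these genes carry the differences described below. They are the 250 bases before a RefSeq start in GRCm38.p6, written 5′ to 3′ on the strand of the gene, with each CpG, the dinucleotide that DNA methylation marks, in capitals. Where RefSeq lists several starts, the start with the most CpGs was taken. The Igf2 stretch is chr7:142658805-142659054 (minus strand), Dlk1 is chr12:109452573-109452822 (plus), Meg3 is chr12:109540746-109540995 (plus), Mest is chr6:30737800-30738049 (plus) and Plagl1 is chr10:13090582-13090831 (plus).
Igf2: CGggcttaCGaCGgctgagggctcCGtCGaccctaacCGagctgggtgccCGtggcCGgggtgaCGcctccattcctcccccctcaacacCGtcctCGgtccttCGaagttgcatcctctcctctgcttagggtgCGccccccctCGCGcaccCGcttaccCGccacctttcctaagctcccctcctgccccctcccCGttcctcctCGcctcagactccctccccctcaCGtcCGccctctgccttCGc
Dlk1: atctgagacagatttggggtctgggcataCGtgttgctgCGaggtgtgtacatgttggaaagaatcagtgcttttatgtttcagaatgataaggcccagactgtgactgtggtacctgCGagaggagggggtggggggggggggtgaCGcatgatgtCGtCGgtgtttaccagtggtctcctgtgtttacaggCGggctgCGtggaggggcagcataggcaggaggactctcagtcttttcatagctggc
Meg3: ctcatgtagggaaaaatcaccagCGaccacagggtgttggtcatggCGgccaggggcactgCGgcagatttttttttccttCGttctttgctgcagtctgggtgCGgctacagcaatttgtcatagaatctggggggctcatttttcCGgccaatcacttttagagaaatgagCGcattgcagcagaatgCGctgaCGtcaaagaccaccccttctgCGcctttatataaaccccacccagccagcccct
Mest: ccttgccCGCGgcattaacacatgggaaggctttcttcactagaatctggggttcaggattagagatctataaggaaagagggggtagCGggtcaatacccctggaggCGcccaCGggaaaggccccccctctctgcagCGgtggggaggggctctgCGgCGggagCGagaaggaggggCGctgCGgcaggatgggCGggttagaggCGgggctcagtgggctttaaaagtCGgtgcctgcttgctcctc
Plagl1: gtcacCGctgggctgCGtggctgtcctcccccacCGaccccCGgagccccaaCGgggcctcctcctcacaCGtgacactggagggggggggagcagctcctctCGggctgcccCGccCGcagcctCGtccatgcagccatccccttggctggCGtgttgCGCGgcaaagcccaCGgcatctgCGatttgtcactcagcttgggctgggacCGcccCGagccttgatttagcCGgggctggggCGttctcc
They hold 22, 8, 10, 14 and 19 CpGs in the order shown. Of the 10 genes, 8 had a window in the RefSeq table, with 15 windows of 300 bases (250 before to 50 after a start) among them, and H19 and Cdkn1c had none. The median over 32851 windows of all genes was 7 CpGs per window. The 4 Igf2 windows ranged from 2 to 24 CpGs, and one of the 2 Grb10 windows held 45, more than 98.1% of all windows. Plagl1 encodes a zinc-finger factor whose known binding motif, GGGGCCCC, reads the same on both strands. Of the 15 member windows 1 held it, that of Peg3, against 1.08% of all windows. The files hold no methylation or binding data, and these counts describe the sequence only.

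Depth was 22484018 to 27561688 gene counts per library at E16.5 and 9108709 to 19774643 at P0.5. Values are in CPM, counts scaled to a common library size, after scaling with edgeR's TMM factors over the 4 libraries of one experiment, unless stated otherwise. The targeted genes were counted over all exons, which does not isolate the deleted ones, so these counts do not check the genotype. Kat8 was at 14.4 and 14.7 CPM in control and 12.4 and 13.9 CPM in MOF cKO, and Kansl1 was at 40.7 and 48.2 CPM in control and 31.4 and 30.6 CPM in Kansl1 cKO. Krt14, a keratin of basal epidermis, was at 4384 CPM or more in all 8 libraries.

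The first question was how high each gene was. To compare genes, CPM scaled over all 8 libraries were divided by exon length in kb. H19 was highest in each of the 4 groups, at 1104 ± 167 CPM per kb (SD, n = 2) in E16.5 control and 758.4 ± 16.6 CPM per kb (SD, n = 2) in P0.5 control. Igf2 was next in each group, at 73.5 ± 18.7 CPM per kb (SD, n = 2) in E16.5 control and 58.7 ± 1.80 CPM per kb (SD, n = 2) in P0.5 control. Cdkn1c, an inhibitor of cyclin-dependent kinases, came next after Igf2 in each group, with 19.6 ± 4.26 CPM per kb (SD, n = 2) in E16.5 control and 9.46 ± 4.27 CPM per kb (SD, n = 2) in P0.5 control. In E16.5 control, Grb10, an adaptor that binds the insulin and IGF1 receptors, was at 14.2 ± 2.35 CPM per kb, with Peg3, a zinc-finger protein, at 9.75 ± 2.65 CPM per kb and Plagl1 at 5.06 ± 1.18 CPM per kb (SD, n = 2 each). The steps from Cdkn1c to Grb10 and from Grb10 to Peg3 were smaller than the sum of their SDs. Mest, a hydrolase-family protein, was at 2.44 ± 0.0797 CPM per kb, and Dlk1, Ndn and Meg3 were at 1.44 ± 0.714, 1.34 ± 0.0844 and 0.578 ± 0.344 CPM per kb (SD, n = 2 each), of which the first and second differed by less than the SD of Dlk1. H19 alone made up 0.364% and 0.291% of all gene counts in the E16.5 controls, and ranked 8 and 13 among all genes by count.

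**Figure D1:**
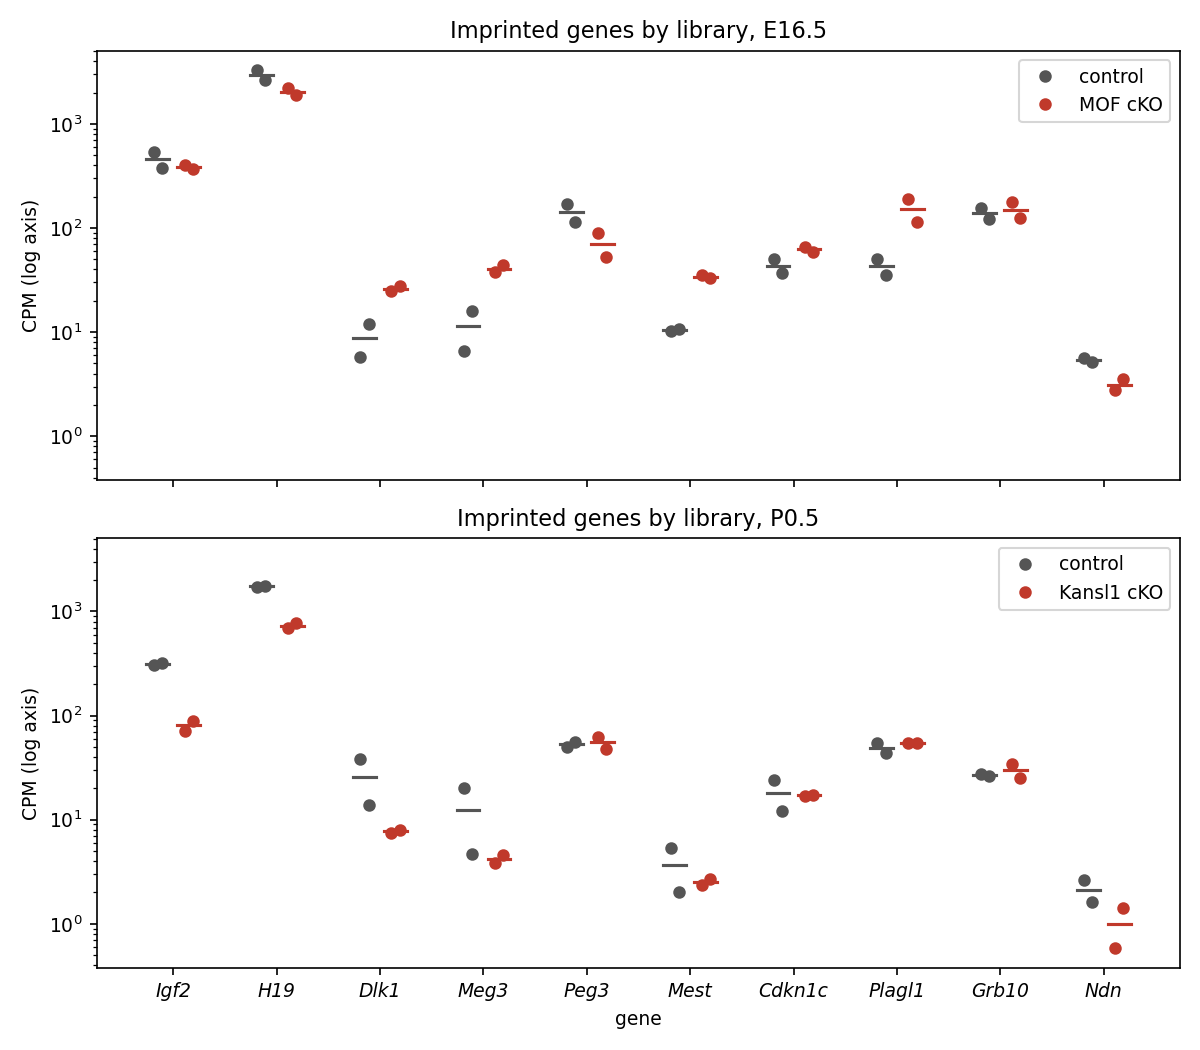
CPM of the 10 imprinted genes (log axis) in each library of the E16.5 experiment (upper panel) and the P0.5 experiment (lower panel), scaled within each experiment; points are libraries and bars are means of 2 libraries. At E16.5 both MOF cKO libraries lie above both controls for Dlk1, Meg3, Mest and Plagl1, and at P0.5 both Kansl1 cKO libraries lie well below both controls for Igf2 and H19.

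MOF cKO was compared with control at E16.5 to find which imprinted genes differed in the sorted epithelium. Of the 10 members, 4 were called higher and 0 lower, where called means an adjusted p of 0.01 or lower in edgeR's quasi-likelihood test over 13956 genes and a fold change over 1.5. Over all genes tested, 10% were called higher and 9.59% lower. At an unadjusted p under 0.05 in edgeR 2 members were lower and 5 higher, where 3506 of all 13956 genes were lower and 3314 higher. DESeq2 called 1 member lower and 4 higher, where it called 1725 of all genes lower and 1816 higher. The 4 that rose were Dlk1, Meg3, Mest and Plagl1.

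Mest was at 10.2 and 10.7 CPM in the control libraries and at 35.2 and 33.0 CPM in the MOF cKO libraries. The libraries of each group lay close together and did not overlap between the groups. The log2 fold change was 1.71 (SE 0.152, edgeR adjusted p = 0.000536), a 3.26-fold rise. Copg2, which overlaps Mest on the other strand, did not rise with it: it was at 76.5 and 57.4 CPM in control and 50.6 and 44.0 CPM in MOF cKO.

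Plagl1 was at 50.2 and 35.7 CPM in control and at 190.3 and 113.1 CPM in MOF cKO. Both MOF cKO libraries were above both controls, although they differed from each other more than the controls did. The log2 fold change was 1.82 (SE 0.264, edgeR adjusted p = 0.00219). Mest and Plagl1 were called under every alternative run at E16.5, including each fit that left out 1 library.

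Dlk1 was at 5.74 and 11.9 CPM in control and at 24.8 and 27.5 CPM in MOF cKO, with a log2 fold change of 1.57 (SE 0.318, edgeR adjusted p = 0.00791). Meg3 was at 6.59 and 16.1 CPM in control and at 37.5 and 44.1 CPM in MOF cKO, with a log2 fold change of 1.85 (SE 0.365, edgeR adjusted p = 0.00719). Control replicate 2 was above control replicate 1 by 2.07-fold for Dlk1 and 2.44-fold for Meg3, and both MOF cKO libraries were higher still. Without MOF cKO replicate 2 the edgeR adjusted p was 0.0121 for Dlk1 and 0.0102 for Meg3, so neither was then called. Neither was called with library size alone (0.016 and 0.0125) or in one fit over all 8 libraries (0.0239 and 0.0329), and Dlk1 was not called with upper-quartile factors (0.0105), all as edgeR adjusted p. Without control replicate 2 the log2 fold changes were 2.19 for Dlk1 and 2.63 for Meg3. Leaving out control replicate 1 instead gave 1.135 for Dlk1 and 1.341 for Meg3. Rian, a noncoding RNA of the same chromosome 12 cluster, was at 5.41 and 7.22 CPM in control and 24.2 and 29.0 CPM in MOF cKO, and rose with a log2 fold change of 2.08 (SE 0.214, edgeR adjusted p = 0.000732).

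Igf2 was at 540.1 and 373 CPM in the E16.5 controls and at 405.3 and 365 CPM in MOF cKO. The groups overlapped, and the log2 fold change of -0.25 (SE 0.174, edgeR adjusted p = 0.297) did not pass the test. H19 was at 3272 and 2622 CPM in control and at 2212 and 1879 CPM in MOF cKO. Its groups did not overlap, but the log2 fold change of -0.53 (SE 0.139, edgeR adjusted p = 0.0218) passed neither threshold. It was called with library size alone (log2 fold change -0.83) and without control replicate 2 (-0.68). Igf2 counts per 100 H19 counts were 16.51 and 14.2 in the control pair against 18.3 and 19.4 in the MOF cKO pair.

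Among the other members at E16.5, Peg3 was at 168.5 and 113.4 CPM in control and 88.5 and 52.7 CPM in MOF cKO. Its log2 fold change of -0.999 (SE 0.268, edgeR adjusted p = 0.0228) missed the threshold, and DESeq2 called it. Cdkn1c was at 50.2 and 36.6 CPM in control and 65 and 59.3 CPM in MOF cKO (log2 fold change 0.52, SE 0.167, edgeR adjusted p = 0.0438). Ndn, a member of the MAGE family known from neurons, was at 5.64 and 5.13 CPM in control and 2.76 and 3.52 CPM in MOF cKO, which is 173 and 142 counts against 55 and 83. Its groups did not overlap and it was not called (edgeR adjusted p = 0.111). Grb10 was at 156.9 and 123.2 CPM in control and 177 and 123.9 CPM in MOF cKO, and the groups overlapped.

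**Figure D2:**
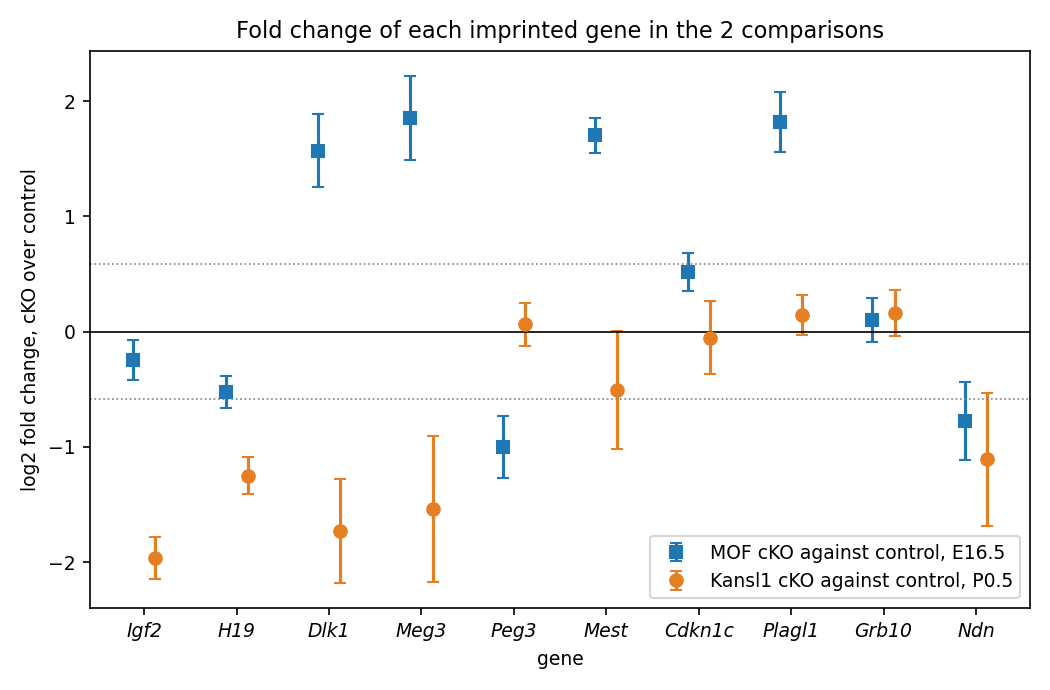
Log2 fold change (cKO over control) of each imprinted gene in MOF cKO at E16.5 (squares) and Kansl1 cKO at P0.5 (circles); bars are standard errors of the fit, and dotted lines mark a 1.5-fold change. Dlk1 and Meg3 lie at 1.57 and 1.85 at E16.5 and at -1.73 and -1.54 at P0.5, where Igf2 is the lowest at -1.97.

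Kansl1 cKO was compared with control at P0.5, the contrast that chose Igf2. Under edgeR's quasi-likelihood test 0 of 13031 genes were called there. DESeq2 called 66 lower and 35 higher, and at an unadjusted p under 0.05 edgeR had 1077 lower and 968 higher. The members are therefore described by fold change and by whether the libraries of the 2 genotypes overlap. By that measure 5 members, Igf2, H19, Dlk1, Meg3 and Ndn, were more than 1.5-fold lower with libraries that did not overlap, and 0 were higher, where 9.35% of all 13031 genes were lower and 7.14% higher by the same measure.

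Igf2 was at 307.9 and 319.1 CPM in the P0.5 controls and at 71.7 and 89.0 CPM in Kansl1 cKO, from 2687 and 4936 counts against 1480 and 1126. The controls were nearly alike, and both Kansl1 cKO libraries were far below them. The log2 fold change was -1.97 (SE 0.184), a 3.90-fold lower level, and it stayed between -2.13 and -1.85 under all 11 alternatives. In rank among all genes, Igf2 went from 425 and 329 in the controls to 2486 and 2109 in Kansl1 cKO.

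H19 was at 1720 and 1761 CPM in control and at 692.5 and 772.6 CPM in Kansl1 cKO, with log2 fold change -1.25 (SE 0.163). It was 2.38-fold lower, a smaller difference than that of Igf2. Igf2 counts per 100 H19 counts were 17.9 and 18.1 in control and 10.4 and 11.5 in Kansl1 cKO. The ratio of the pair was thus lower in both Kansl1 cKO libraries than in all 6 other libraries of the series. Igf2 was singled out by its low count in the Kansl1 cKO libraries, which favours a low ratio there, so the ratio is given as a description only.

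**Figure D3:**
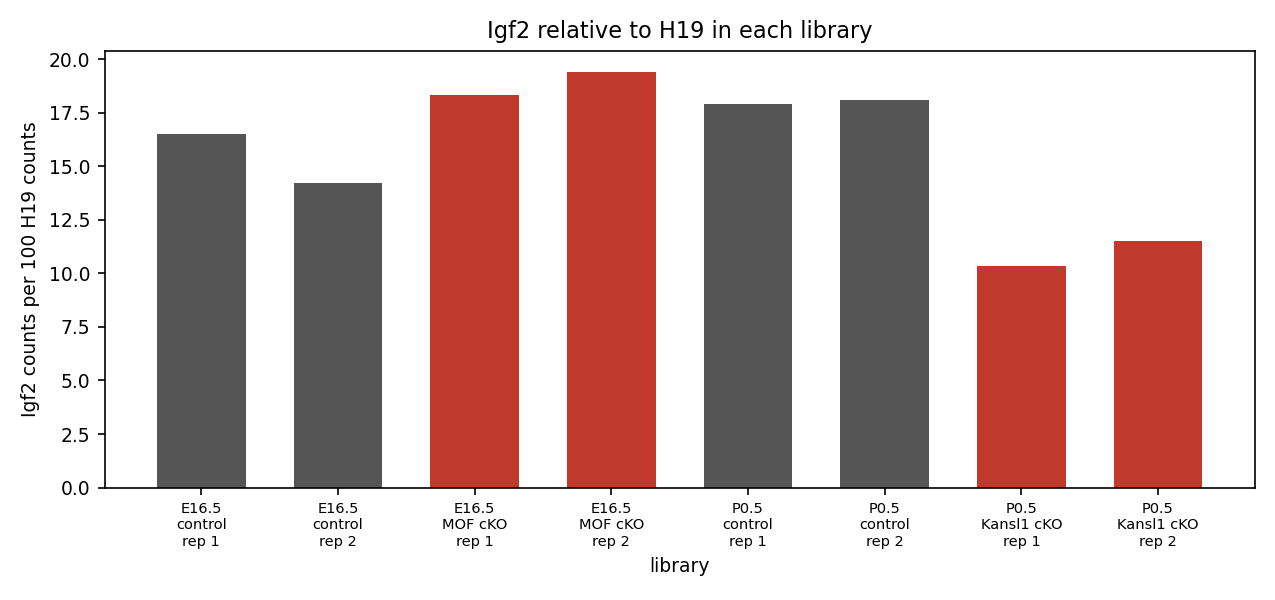
Igf2 counts per 100 H19 counts in each of the 8 libraries, controls in grey and cKO in red. The Kansl1 cKO libraries, at 10.4 and 11.5, are below the other 6 libraries, which lie between 14.2 and 19.4. Igf2 was singled out by its low count in the Kansl1 cKO libraries, which favours a low ratio there.

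Dlk1 was at 37.9 and 13.8 CPM in the P0.5 controls and 7.51 and 7.90 CPM in Kansl1 cKO (log2 fold change -1.73, SE 0.449). Meg3 was at 20.3 and 4.66 CPM in control and 3.83 and 4.58 CPM in Kansl1 cKO (log2 fold change -1.54, SE 0.631). Control replicate 1 stood apart for both genes. Without it the log2 fold change of Dlk1 was -0.84 and that of Meg3 was -0.15, and 4 members in place of 5 were past the measure. Rian was at 22.3 and 3.49 CPM in control and 3.44 and 2.77 CPM in Kansl1 cKO, so that its log2 fold change was -2.01, and it became -0.16 without that control.

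Ndn was low throughout, at 2.63 and 1.62 CPM in control and 0.581 and 1.42 CPM in Kansl1 cKO, from 23 and 25 counts against 12 and 18. Mest was at 5.38 and 2.004 CPM in control and 2.37 and 2.69 CPM in Kansl1 cKO, and the groups overlapped. The remaining members, Peg3, Cdkn1c, Plagl1 and Grb10, had log2 fold changes between -0.05 and 0.16 with overlapping groups. Plagl1 for instance was at 55.0 and 43.3 CPM in control and 53.9 and 54.8 CPM in Kansl1 cKO.

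The lower levels of Igf2 and H19 at P0.5 were set beside markers of other cells, since fewer cells of a type and less RNA per cell cannot be told apart in bulk libraries. The summed level of 17 dermal fibroblast markers was 2492 and 1507 CPM in control and 1302 and 1217 CPM in Kansl1 cKO. Postn, the highest of them in each P0.5 library, went the other way and makes up much of these sums. It was at 723.7 and 671.9 CPM in control and 880.4 and 790.5 CPM in Kansl1 cKO (log2 fold change 0.26). Of the 16 tested markers, 13 were more than 1.5-fold lower with no overlap, where 9.35% of all tested genes were lower by that measure. The median log2 fold change of the 16 was -1.71, while none was at 0 in all libraries. Col1a1, the chain of type I collagen, was at 400.2 and 196 CPM in control and 80.2 and 77.9 CPM in Kansl1 cKO, and Pdgfra, a receptor of fibroblasts, was at 21.5 and 6.79 CPM against 1.89 and 3.004 CPM. Without control replicate 1, 11 of 16 markers were still past the measure and the median was -0.89. Melanocyte and Schwann cell markers summed to 585.7 and 643.3 CPM in control and 1164 and 1282 CPM in Kansl1 cKO, and macrophage markers to 207.7 and 241 CPM against 300.8 and 330.7 CPM. The part of these cells in the lower Igf2 and H19 was not tested.

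The 2 P0.5 controls differed from each other in these markers. The 16 fibroblast markers had a median ratio of 2.60 (replicate 1 over replicate 2), with 15 of 16 higher in replicate 1, and the muscle markers summed to 348.6 CPM in control replicate 1 and to between 6.32 and 10.3 CPM in the other P0.5 libraries. Over the same pair of controls 7 of the 10 members had a ratio over 1. The ratios were 4.36 for Meg3, 2.76 for Dlk1, 2.69 for Mest, 1.95 for Cdkn1c, 1.63 for Ndn, 1.27 for Plagl1, 1.04 for Grb10, 0.977 for H19, 0.965 for Igf2 and 0.881 for Peg3. They come from 1 pair of libraries and are given as values.

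At E16.5, fibroblast markers summed to 1677 and 2230 CPM in control and 2253 and 2769 CPM in MOF cKO. Of the 16 tested, 13 were above 0 in log2 fold change, with a median of 1.01. Postn, 1 of the 3 below 0, was at 861.1 and 726.8 CPM in control and 673.5 and 516.6 CPM in MOF cKO. None of the markers was called by edgeR. At an unadjusted p under 0.05, 2 were lower and 9 higher, where 3506 of all 13956 genes were lower and 3314 higher. DESeq2 called 3 higher, where it called 1816 of all genes higher. By the fold and overlap measure 12 were more than 1.5-fold higher and 1 lower, where 2649 of all 13956 genes were higher and 3199 lower. Without control replicate 1, 6 of 17 were past that measure with a median of 0.47, and without control replicate 2 the median was 1.75. Col1a1 was at 120 and 320.4 CPM in control and 357.9 and 532.8 CPM in MOF cKO. Between the 2 controls (replicate 2 over replicate 1) the fibroblast markers had a median ratio of 2.11, and the 4 members called had ratios of 2.44 for Meg3, 2.07 for Dlk1, 1.04 for Mest and 0.711 for Plagl1. Macrophage markers summed to 20.1 and 45.6 CPM in control and 110.2 and 138.4 CPM in MOF cKO. Of the 12, 8 were called higher, although the sort kept GFP-positive cells. For all tested genes 10% were called higher and 9.59% lower. Endothelial markers summed to 18.3 and 21.4 CPM in control and 24.2 and 41.4 CPM in MOF cKO, with 9 of 10 above 0 in log2 fold change, a median of 1.23 and 1 called, Pecam1. Of 14 epidermal markers, 3 of the suprabasal layers were called higher, Krt1 (3.18-fold), Krt10 (2.17-fold) and Ivl (19.1-fold, from 11 and 20 counts in control), and Krt15, a basal keratin, was called lower (2.39-fold). The rest were not called. Of the basal ones, Krt14 and Itgb4 had log2 fold changes of 0.20 and 0.45, and Krt5, Trp63, Itga6 and Col17a1 of -0.04, -0.57, -0.26 and -0.28. The suprabasal Lor and Dsg1a had 0.51 and 0.37. The part of these cells and layers in the higher members was not tested.

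**Figure D4:**
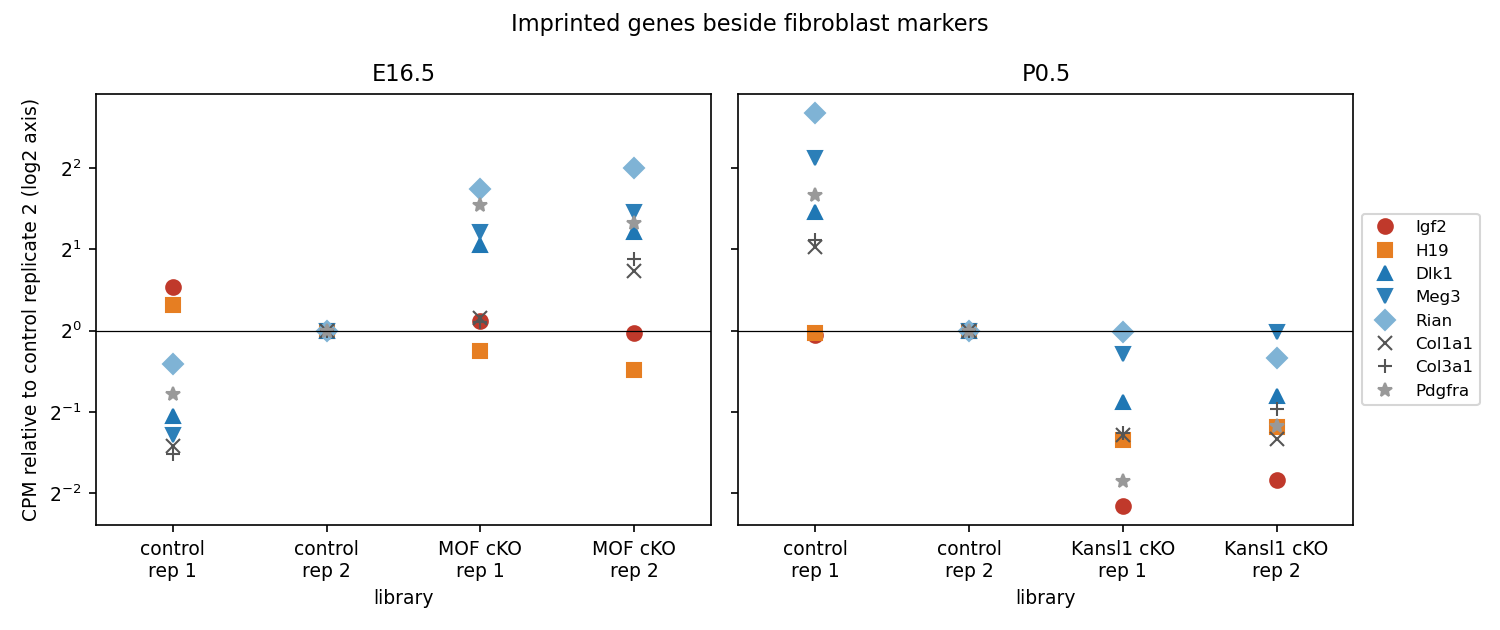
CPM of Igf2, H19, Dlk1, Meg3 and Rian beside the fibroblast markers Col1a1, Col3a1 and Pdgfra, each divided by its CPM in control replicate 2 of the same experiment (log2 axis); 1 point per gene and library. At P0.5, control replicate 1 is high in Dlk1, Meg3, Rian and the markers but not in Igf2 (307.9 against 319.1 CPM) or H19.

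The wider set of imprinted genes, a list of 62 by name of which 61 had a row, was counted next. Whether each of these genes is imprinted in skin epithelium was not tested. At E16.5, 45 were tested, 2 were called lower and 6 higher, and the median log2 fold change was 0.12 against -0.02 over all genes. Over all genes 9.59% were called lower and 10% higher, so 6 of 45 is near that background. Besides Rian, Impact, an inhibitor of the kinase GCN2, was at 31.3 and 29.1 CPM in control and 67.3 and 72.6 CPM in MOF cKO (log2 fold change 1.21, edgeR adjusted p = 0.00069). Cd81, a tetraspanin, rose from 76.9 and 80.4 CPM to 158.8 and 189.9 CPM (log2 fold change 1.15, edgeR adjusted p = 0.000782). Osbpl5, Blcap and Pon2 rose by log2 fold changes of 0.95, 0.94 and 0.91. Trappc9, a subunit of a trafficking complex, fell from 40.1 and 44.6 CPM to 16.6 and 14.99 CPM (log2 fold change -1.42, edgeR adjusted p = 0.000725), and Inpp5f, a phosphoinositide phosphatase, fell with a log2 fold change of -1.17.

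At P0.5, 40 of the wider set were tested, and 4 were lower and 4 higher by the fold and overlap measure. By the same measure 9.35% of all tested genes were lower and 7.14% higher, so these counts are near that background. The median log2 fold change was 0.07 against 0.01 over all genes. Rian, Mkrn3, Pon3 and Zdbf2 were lower. Pon3, a lactonase, was at 12.03 and 9.12 CPM in control and 5.81 and 5.77 CPM in Kansl1 cKO. Nnat, Rasgrf1, Gatm and Ppp1r9a were higher, all at low levels: Nnat was at 0.344 and 0.259 CPM in control, from 3 and 4 counts, and at 2.42 and 1.11 CPM in Kansl1 cKO. Slc38a4, an amino acid transporter that is imprinted in mouse, was at 406.1 and 390.6 CPM in control and 450.1 and 432.3 CPM in Kansl1 cKO.

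The genes of the IGF axis were looked at because Igf2 acts through them. At E16.5, 23 of 26 were tested, 1 was called lower and 4 higher, with a median log2 fold change of -0.23, beside 9.59% lower and 10% higher over all genes. Igfbp4, a binding protein that holds IGFs, was lower, at 52.1 and 59.7 CPM in control and 35.2 and 25.8 CPM in MOF cKO (edgeR adjusted p = 0.00737). Stc2 and Stc1, which inhibit the pregnancy-associated plasma proteases that cleave IGF binding proteins, rose by log2 fold changes of 2.20 and 0.80, Igfbp7 by 1.91 and Igf2bp1, an RNA-binding protein of Igf2 mRNA, by 0.64. Igf2r, the imprinted receptor that clears IGF2, was at 186 and 162.1 CPM in control and 249.9 and 246.1 CPM in MOF cKO, and missed the threshold (log2 fold change 0.51, edgeR adjusted p = 0.0102). Igf1r, the signalling receptor, was at 74.2 and 64.5 CPM against 97.6 and 81.3 CPM and was not called.

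At P0.5, 22 IGF axis genes were tested, and 2 were lower and 2 higher by the fold and overlap measure. Among all tested genes 9.35% were lower and 7.14% higher by that measure. Igfbp3 was at 58.7 and 22.7 CPM in control and 9.20 and 11.3 CPM in Kansl1 cKO. Its log2 fold change was -1.98, and -1.15 without control replicate 1. Igfbp6 was also lower, and Igfbp5 and Pappa, one of those plasma proteases, were higher, with log2 fold changes of -1.05, 0.71 and 0.90. Igf2r was at 64.6 and 60.5 CPM in control and 80.6 and 73.3 CPM in Kansl1 cKO, and Igf1r at 79.2 and 71.3 CPM against 73.4 and 73.0 CPM.

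Of 18 factors that maintain imprints, 17 were tested at E16.5 and 1 was called. Among all tested genes 9.59% were called lower and 10% higher. The 1 called factor was Zfp57, a zinc-finger protein that binds methylated imprinting control regions. It rose from 11.8 and 13.4 CPM in control to 25.6 and 28.6 CPM in MOF cKO (log2 fold change 1.11, edgeR adjusted p = 0.00247). Its partner Trim28 was at 579.7 and 619.6 CPM against 745.5 and 814.4 CPM, and Ctcf, which insulates Igf2 from the shared enhancers on the maternal copy, was at 142.2 and 142.7 CPM against 133.8 and 145.1 CPM. Dnmt1, the maintenance methyltransferase, was at 396 and 376.1 CPM against 304.8 and 316.2 CPM, and none of these 3 was called. At P0.5, 16 were tested and 0 were past the fold and overlap measure in either direction, with log2 fold changes between -0.22 and 0.41. That measure took in 9.35% of all tested genes as lower and 7.14% as higher.

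The genes whose pattern over the 8 libraries was most like that of Igf2 were found by the root-mean-square difference in log2 CPM, each gene centred on the controls of its experiment, among 10348 genes. Outside the members the closest were Igf2as, a transcript of the Igf2 locus, at 0.278, Entpd2 at 0.379, Igfbp3 at 0.396, Ripk3 at 0.400 and Npdc1 at 0.412. H19 ranked 3 among all genes, at 0.396, while Dlk1 ranked 5852. Igf2as was at 4.01 and 3.56 CPM in the P0.5 controls and 1.21 and 0.869 CPM in Kansl1 cKO, from 35 and 55 counts against 25 and 11. The overlap of reads between Igf2as and Igf2 was not tested.

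The controls of the 2 stages are given side by side on the scale of all 8 libraries, with no test. Igf2 was 1.25-fold, H19 1.46-fold, Mest 2.44-fold, Peg3 2.29-fold, Grb10 4.51-fold, Cdkn1c 2.07-fold and Ndn 2.18-fold higher in the E16.5 controls than in the P0.5 controls. None of these groups overlapped, but for Igf2 the lowest E16.5 control was at 345.1 CPM and the highest P0.5 control at 343.3 CPM. The share of all genes whose controls did not overlap between the stages was not counted. Plagl1 was 1.33-fold and Dlk1 3.40-fold higher at P0.5. The P0.5 controls of Dlk1 lay far apart, at 40.5 CPM in replicate 1 and 14.81 CPM in replicate 2. Its E16.5 controls were at 8.13 ± 4.04 CPM (SD, n = 2). The 3.40-fold comes from means that include P0.5 control replicate 1, which was also high in fibroblast and muscle markers. P0.5 control replicate 2 was also above the highest E16.5 control of Dlk1, which was at 10.99 CPM. The part of other cells in this difference was not tested. The Meg3 controls of the 2 stages overlapped.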

How the data were processed

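Polyadenylated RNA was sequenced from 8 libraries, 2 per group. The authors aligned reads to mm10 (HISAT2 in the methods, TopHat2 in the submitters' processing notes) and deposited HTSeq counts per gene, not normalized; the strand setting is not given in the sources used here. Entries naming no gene (21.1 to 26.0% of each library) were left out. Counts were filtered with filterByExpr, scaled with TMM and tested in R 4.3.3 with the quasi-likelihood test of edgeR 4.0.16, p-values adjusted by Benjamini-Hochberg, each experiment alone. Called means adjusted p of 0.01 or lower and fold over 1.5, the thresholds of the study. SE is the standard error of the log2 fold change.

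Coordinates came from GENCODE M21 and promoters from RefSeq (GRCm38.p6). Of the symbols, 93.0% were found in GENCODE. Members, lists and tests were chosen with earlier results of these data known. Genes named are all members, list genes called at E16.5 (up to 8 by fold and 4 by level), those past the fold and overlap measure at P0.5, and the 5 most like Igf2. Slc38a4, Copg2 and the receptors were named after their values were seen. Replicates of each group differed beyond counting error. Alternatives were DESeq2 1.42.0, other scalings and filters, a replicate block, 1 fit over 8 libraries and leaving out each library.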

Additional observations from a re-analysis of the deposited data

How the results depend on the processing

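At E16.5 the members called numbered 2 in the fit over all 8 libraries and between 2 and 6 with each library left out. With library size alone in place of TMM, which moved the median over all genes to -0.32 in log2 fold change, 13 other imprinted genes and 5 imprint maintenance factors were called. The IGF axis genes called numbered 3 with upper-quartile factors, 1 in the fit over all 8 libraries, and between 3 and 5 with each library left out. The imprint maintenance factors called numbered 3 with DESeq2, 2 with RLE factors, 2 with every gene of at least 1 count, 2 in the fit over all 8 libraries, and between 1 and 2 with each library left out. At P0.5, the other imprinted genes past the fold and overlap measure numbered between 7 and 16 with each library left out, with 13 when control replicate 2 and 16 when Kansl1 cKO replicate 2 was dropped, where a lone library makes overlap rarer. The cause of these moves was not tested.

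The sign of the log2 fold change turned for Igf2 at E16.5 without control replicate 1 (0.043, in a leave-one-out range of -0.486 to 0.043). For Grb10 at E16.5 it turned with library size alone (-0.21) and without control replicate 2 (-0.06). It also turned there without MOF cKO replicate 1 (-0.18, in a leave-one-out range up to 0.337). At P0.5 the sign turned without control replicate 1 for Mest (0.33), Cdkn1c (0.493) and Peg3 (-0.023). It turned for Plagl1 without control replicate 2 (-0.049). Peg3 (-0.185) and Grb10 (-0.123) turned without Kansl1 cKO replicate 1, and Cdkn1c with the replicate block (0.005). Peg3 at E16.5 was called under 6 of 11 alternatives, DESeq2 among them. H19 was called under 2, library size alone and without control replicate 2, and Cdkn1c under 1, without control replicate 1.

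Same-numbered libraries deviated together at E16.5 (correlation 0.206) and in opposite directions at P0.5 (-0.202), and nothing in the labels ties the numbers to a litter. With the replicate number as a block, 5 members and 2 imprint maintenance factors were called at E16.5, with 2263 genes lower and 1903 higher in all. A crossed pairing at P0.5, chosen after seeing the data, called 1 gene lower and 0 higher. Both the 2 libraries per group and, for genes of few counts such as Ndn and Nnat at P0.5, the depth limit the precision.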
